A study of Mus musculus with 12 samples.

Results

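The NR4A orphan nuclear receptors are a family of 3 transcription factors, encoded in the mouse by Nr4a1 (Nur77), Nr4a2 (Nurr1) and Nr4a3 (Nor1). Rows of the count table were taken where the gene name equalled one of these symbols, which gave 3 of 43280 gene rows and 3 of the 13104 genes that were tested. The family was selected on the difference between modified maternal separation (MMS) and control pups that Nr4a1 and Nr4a3 showed in these same libraries. The values of that contrast are therefore given for the 3 genes as a description, without a test.

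Hypothalamic mRNA was sequenced from the 3' end in 12 C57/Bl6 male pups, 6 control and 6 MMS, killed at postnatal day 6. MMS pups spent a period of each of the last days apart from the dam on a heating pad, where they were turned onto their backs whenever they righted themselves, and the tissue was taken directly after the last session. Control pups were males of the same litters that were not given MMS, and the litter of each pup was not given in the labels. All pups had grown up in litters reduced to males, so the data say nothing of females. The tissue was the whole hypothalamus, dissected between the optic chiasm and the mamillary recess, so each value is an average over all its cells.

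Nuclear receptors bind DNA and change the transcription of nearby genes, in most cases under the control of a small molecule such as a steroid or thyroid hormone. The NR4A receptors are called orphans because they are active without a known hormone, and their activity is set largely by how much of them is made. Nr4a1 and Nr4a3 are immediate early genes, transcribed within minutes of neuronal activity, cyclic AMP, calcium or growth factor signals through the transcription factor CREB, whose site is the cyclic AMP response element (CRE). Nr4a2 is also inducible, and in addition it is made steadily by some neurons, best known in midbrain dopamine neurons, which need it to form and survive. In the hypothalamus and pituitary NR4A receptors have been linked to the transcription of Crh and Pomc, the peptide genes of the stress axis.

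The 3 genes lie on separate chromosomes of the mm10 build in GENCODE release M21. Nr4a1 is at chr15:101254269-101274795 on the plus strand, Nr4a2 at chr2:57106830-57124003 on the minus strand and Nr4a3 at chr4:48045153-48086447 on the plus strand. None of them overlapped another annotated gene (0 overlaps each). Each had 8 exons in its longest coding transcript. In 3' libraries the reads come from the end of the last exon, and over the last 500 bases the longest identical run between any 2 members was 8 to 11 bases.

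The promoter sequences are shown because CREB-driven transcription is the best known property shared by the family. They are the 250 bases before the start site of each gene in RefSeq (GRCm38.p6, the assembly of mm10), written 5' to 3' on the strand of the gene. Capitals mark the CRE core, TGACG or its reverse complement CGTCA. The windows are chr15:101266596-101266845 (plus strand), chr2:57124004-57124253 (minus strand) and chr4:48045055-48045304 (plus strand). The Nr4a1 window lies inside the gene as bounded in GENCODE, and the sequence before that more upstream start was not examined. The Nr4a3 window runs past the GENCODE start of its gene.
Nr4a1: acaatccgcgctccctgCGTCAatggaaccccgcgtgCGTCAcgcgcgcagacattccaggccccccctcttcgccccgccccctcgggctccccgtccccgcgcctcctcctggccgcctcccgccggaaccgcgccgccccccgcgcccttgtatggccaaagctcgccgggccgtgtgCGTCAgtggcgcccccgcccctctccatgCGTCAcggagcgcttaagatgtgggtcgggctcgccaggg
Nr4a2: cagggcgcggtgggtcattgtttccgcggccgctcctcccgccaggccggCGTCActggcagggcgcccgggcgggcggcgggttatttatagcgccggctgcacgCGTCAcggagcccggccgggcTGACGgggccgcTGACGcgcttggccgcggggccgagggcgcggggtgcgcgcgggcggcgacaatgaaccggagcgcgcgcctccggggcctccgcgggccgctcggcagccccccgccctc
Nr4a3: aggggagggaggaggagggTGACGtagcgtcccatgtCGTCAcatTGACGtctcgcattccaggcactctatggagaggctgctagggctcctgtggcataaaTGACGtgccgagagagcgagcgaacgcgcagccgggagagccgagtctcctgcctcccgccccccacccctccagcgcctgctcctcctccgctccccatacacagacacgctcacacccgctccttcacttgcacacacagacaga

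Each window held 4 CRE cores, counted on both strands. Of 32841 mouse promoter windows of the same length, 17.8% held at least 1 and 0.137% held at least 4. These windows were not matched for GC content, which was 74.4% in Nr4a1, 80.0% in Nr4a2 and 63.6% in Nr4a3. The core itself contains the pair CG, so how rare 4 cores are among windows of like GC content is not known. In Nr4a1 the cores began at -233, -213, -69 and -40 from the start site, in Nr4a2 at -200, -144, -123 and -111, and in Nr4a3 at -231, -213, -205 and -147. The complete CRE (TGACGTCA, both strands), which contains the core, was found in 0 of the 3 windows and in 1.55% of all windows. The AP-1 site of Fos and Jun proteins (TGANTCA, 6.75% of all windows), the NR4A family's own site NBRE (AAAGGTCA, 1.34%) and the CArG box of serum response factor (1.47%) were also found in 0 of the 3. A MEF2 site, present in 2.92% of all windows, occurred once, in Nr4a2 at -167. The 40 windows matched to 23 other early genes held a CRE core in 57.5% of cases, and the 61 windows matched to 40 other nuclear receptor genes in 16.4%. These are matches of letters, and binding was not measured.

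**Figure D1:**
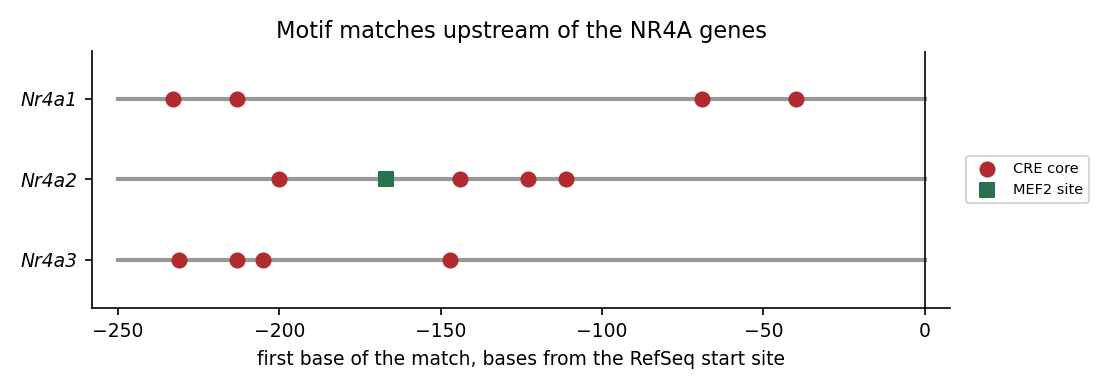
Matches to the CRE core and to the MEF2 site in the 250 bases before the RefSeq start site of Nr4a1, Nr4a2 and Nr4a3, with the distance from the start site in bases on the horizontal axis and 1 line per gene. Each line carries 4 CRE cores, and the only MEF2 match lies at -167 in Nr4a2.

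All 3 genes were detected in all 12 libraries and passed the filter on low counts in all 6 libraries of both groups, so the filter removed none of them. Library totals were 3765759 to 6560620 counts in controls and 3218777 to 5344080 in the MMS group. Levels are given as CPM, counts relative to the TMM-scaled library total. On the first principal component (30.4% of the variance) MMS 2 and MMS 4 had scores of 57.8 and 46.3, and the other 10 libraries -14.4 to -3.04. The summed ependymal cilia markers were 9.13 CPM in MMS 2 and 32.1 CPM in MMS 4, against 67 to 168 CPM in controls. For the members, and for the genes with the smallest p of each list below, fold changes that moved by over 1.5 times without both libraries are given with and without them. Each of the 11 hypothalamus markers had counts in some library, with sums of 745 to 1700 CPM in controls and 1170 to 1580 CPM in MMS. Single markers were uneven, with Agrp at 0 to 34.3 CPM and Rax at 0 to 6.04 CPM over the libraries.

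In control pups the family was made up mostly of Nr4a2. Its level was 54.7 ± 17.8 CPM, against 8.82 ± 3.28 for Nr4a1 and 5.07 ± 1.15 for Nr4a3 (SD, n = 6). CPM from the transcript end needs no correction for length, since each mRNA gives about the same number of reads. Nr4a2 took 79.5% of the NR4A counts of controls, Nr4a1 13% and Nr4a3 7.53%. By level these genes stood above 70.6%, 23.6% and 13% of the tested genes, respectively.

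The order of the levels within control libraries is given as a description, since control values entered the contrast on which the family was selected. On the log2 CPM scale Nr4a2 exceeded Nr4a1 by 2.55 ± 0.466 (SD, n = 6, higher in 6 of 6 libraries). The difference of Nr4a3 from Nr4a2 was -3.25 ± 0.84 (lower in 6 of 6 libraries). Nr4a3 and Nr4a1, the neighbours at the low end, did not separate beyond their spread, with a difference of -0.70 ± 0.714 and Nr4a3 lower in 5 of 6 libraries.

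Nr4a3 had the largest difference between the groups in the family, and the largest fitted log2 fold change of all 13104 genes. In controls the lowest, median and highest library had 3.26, 5.49 and 6.21 CPM. In MMS pups they had 8.33, 15.7 and 29 CPM. The groups did not overlap, and the lowest MMS library was 1.34 times the highest control.

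Mean Nr4a3 was 16.9 ± 8.29 CPM after MMS against a control mean of 5.07 ± 1.15 CPM (SD, n = 6 in each), a ratio of 3.34. The fitted log2 fold change was 1.71 (SE 0.29). Variation between pups was much wider after MMS, with a coefficient of variation of 49% against 22.8%. The lowest MMS values were those of MMS 2 and MMS 4, at 8.33 and 9.93 CPM, and without both the log2 fold change was 2.02 (SE 0.24). Nr4a3 is known from muscle, blood and the brain as a gene switched on by activity and by growth signals.

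Nr4a1, which was first known as a gene induced by nerve growth factor, differed in the same direction. Control libraries had 4.63, 8.5 and 12.6 CPM as the lowest, median and highest value, and MMS libraries 15.1, 16.7 and 22.7 CPM. The groups again did not overlap, although the gap was narrower, with the lowest MMS library at 1.19 times the highest control. The control and MMS means were 8.82 ± 3.28 and 18.2 ± 3.15 CPM (SD, n = 6 each), a ratio of 2.06 and a fitted log2 fold change of 1.03 (SE 0.22). This was the 14th of 13104 fitted fold changes from the top.

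Unlike that of Nr4a3, the spread of Nr4a1 was not wider after MMS. Its coefficient of variation was 37.1% in controls and 17.3% in MMS pups. MMS 2 and MMS 4 had 21.5 and 15.1 CPM of Nr4a1, and without both libraries the log2 fold change was 1.03 (SE 0.23).

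Across the table, 0% of tested genes passed an adjusted p of 0.05 in edgeR's quasi-likelihood test, and 9.08% (1190 genes) had an unadjusted p under 0.05. DESeq2 called 7 genes and limma-voom 0. In 0.130% of tested genes all 6 MMS values lay above all 6 control values, and in 0.145% the fitted log2 fold change was at least 1. Nr4a1 and Nr4a3 were 2 of the 17 genes without overlap and 2 of the 19 past that fold. Because these genes were chosen by this contrast, nothing is read from those shares. Both genes are low in number of reads, with 22 to 87 counts per library for Nr4a1. Nr4a3 had 12 to 37 counts in control libraries and 31 to 148 in MMS libraries. Counting error alone gave the nearest libraries overlapping 95% Poisson intervals. For Nr4a3 they were 4.37 to 8.56 CPM in control 3 and 5.66 to 11.8 CPM in MMS 2, and for Nr4a1 10.1 to 15.7 CPM in control 5 and 12 to 18.6 CPM in MMS 4.

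Nr4a2, the dopamine neuron factor of the family, did not follow the others. Control libraries had 19.4, 60.2 and 66.8 CPM as the lowest, median and highest value, and MMS libraries 16.9, 52.7 and 66.5 CPM. The groups overlapped over nearly their whole range. Their means were 54.7 ± 17.8 and 46 ± 21.2 CPM (SD, n = 6 each), with a fitted log2 fold change of -0.24 (SE 0.36), which ranked 11068 of 13104. Leaving out control 6 or MMS 5 gave -0.41 and -0.37, leaving out MMS 2 or MMS 3 gave -0.07 and -0.12, and -0.02 was found once MMS 2 and MMS 4 were both removed. In bulk tissue fewer cells of a type and less RNA per cell cannot be told apart.

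**Figure D2:**
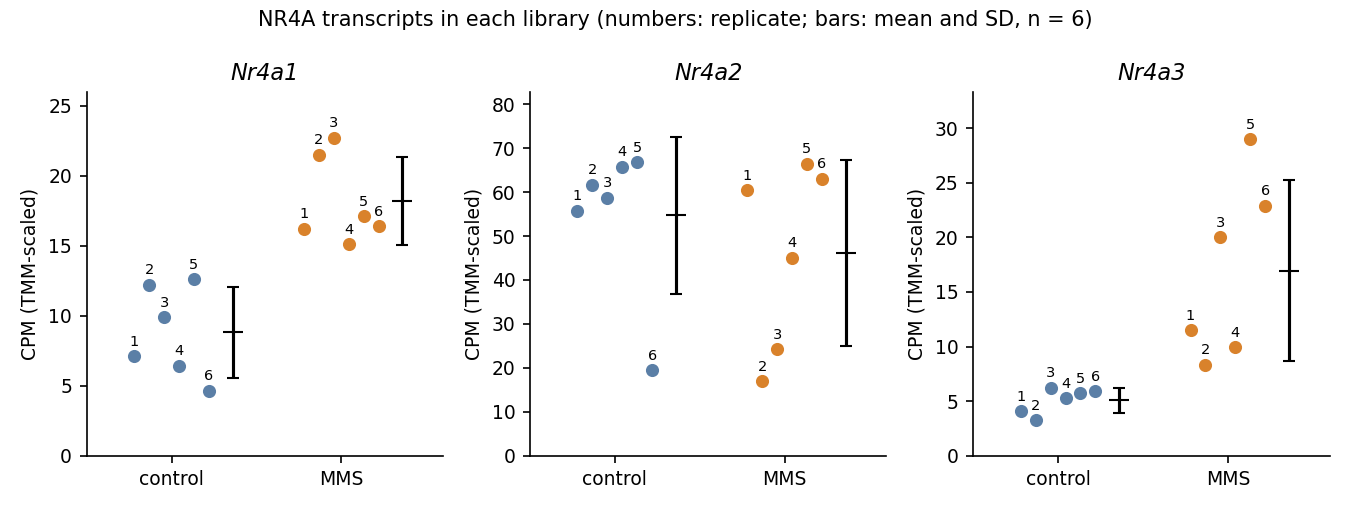
Level of Nr4a1, Nr4a2 and Nr4a3 in each of the 12 libraries, in CPM on a linear axis that differs by gene, with 1 numbered point per pup and bars for the group mean and SD. Control and MMS points are separate for Nr4a1 and Nr4a3 and overlap for Nr4a2, for which control 6, MMS 2 and MMS 3 lie at 16.9 to 24.2 CPM.

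The make-up of the family differed between the groups accordingly. In MMS pups Nr4a2 took 57.8% of the NR4A counts, Nr4a1 21.7% and Nr4a3 20.5%. The sum over the 3 genes was 81.1 ± 24.5 CPM after MMS and 68.6 ± 19.8 CPM without (SD, n = 6 each), with ranges of 46.7 to 113 and 29.9 to 85.2 CPM that overlapped. The difference of Nr4a2 over Nr4a1 was 1.17 ± 1.02 on the log2 scale in MMS pups, and in MMS 2 it was -0.34, with Nr4a1 above Nr4a2. Nr4a3 differed from Nr4a2 by -1.40 ± 0.767 and from Nr4a1 by -0.22 ± 0.752 in the MMS group.

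The size of the MMS difference was compared over ways of processing the counts. Over 6 other settings, which were other scalings and tools, no filter, the replicate number as a block and leaving out both MMS 2 and MMS 4, the log2 fold change of Nr4a1 ran from 1.03 to 1.08, that of Nr4a3 from 1.55 to 2.02 and that of Nr4a2 from -0.30 to -0.02. With 1 library left out at a time, Nr4a1 ran from 0.91 to 1.18 and Nr4a3 from 1.49 without MMS 5 to 1.86 without MMS 2. Both were above 0 in all of these fits, whereas Nr4a2 was between -0.41 and -0.07. Since the groups did not overlap for Nr4a1 and Nr4a3, leaving out libraries could not turn their sign. Only the range of their values is informative.

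**Figure D3:**
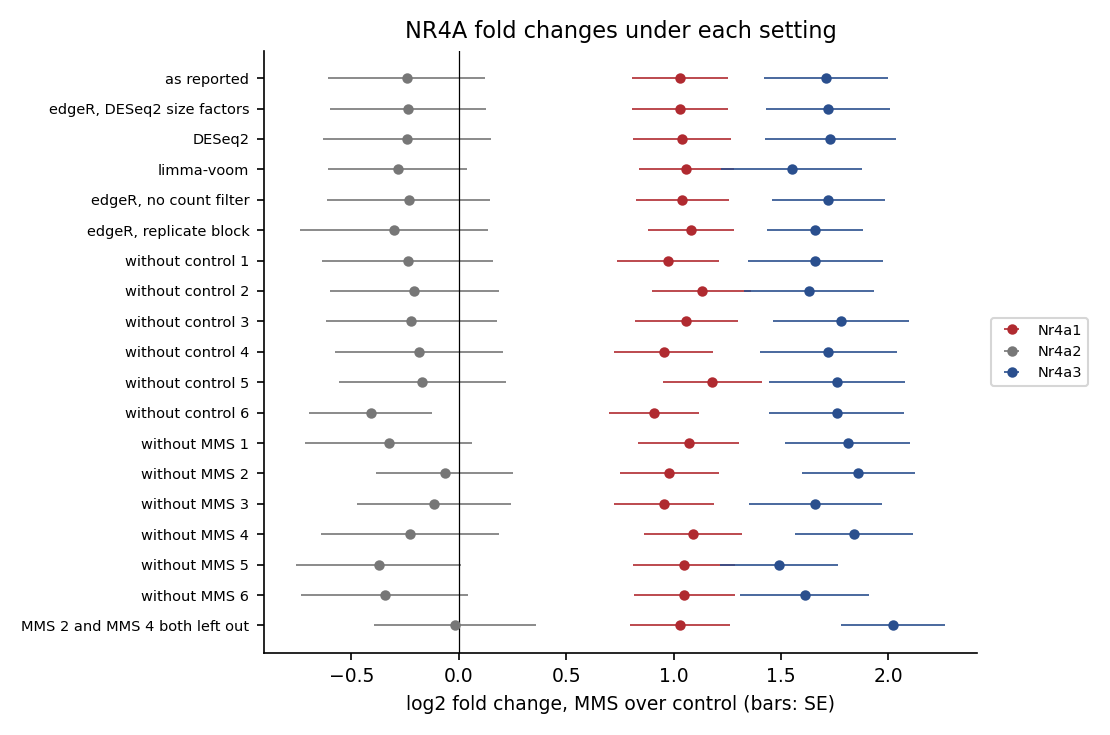
Fitted log2 fold change, MMS over control, of Nr4a1, Nr4a2 and Nr4a3 under each way of processing, with 1 row per setting and bars for the standard error. Nr4a1 stays between 0.91 and 1.18 and Nr4a3 between 1.49 and 2.02, whereas Nr4a2 lies between -0.41 and -0.02.

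Whether the members moved together from pup to pup was examined within each group. None of the 6 relations passed after adjustment over the 6 (0 of 6). The strongest were between Nr4a1 and Nr4a2. In controls r was 0.731 (n = 6, exact permutation p = 0.0486, adjusted p = 0.2) and rho was 0.657 (exact permutation p = 0.175, adjusted p = 0.525), and without control 5 and control 6 r was -0.0967. In the MMS group r was -0.843 (n = 6, exact permutation p = 0.0667, adjusted p = 0.2) and rho -0.371 (exact permutation p = 0.497, adjusted p = 0.803), and without MMS 2 and MMS 3 r was 0.972. Both relations thus changed sign without those libraries. Nr4a3 and Nr4a2 in the MMS group had r of 0.501 (exact permutation p = 0.315, adjusted p = 0.63) and rho of 0.829 (exact permutation p = 0.0583, adjusted p = 0.35).

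The genes most like each member were listed by Pearson's r over the 12 libraries after subtracting the group means, among 11745 genes, as a description. The members were not like each other on this measure (r = 0.171 for Nr4a1 and Nr4a2, -0.123 for Nr4a1 and Nr4a3, and 0.268 for Nr4a2 and Nr4a3). Closest to Nr4a1 were Ccnjl (0.912), Etv6 (0.857), Egflam (0.853), Orc2 (0.849) and Rilp (0.834). Closest to Nr4a3 were Anp32e (0.964), Tbpl1 (0.949), Enpp5 (0.948), Dlg4 (0.945) and Gpr12 (0.943). These are the highest values of many in few libraries, and they were not tested.

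Closest to Nr4a2 were Lmx1a (r = 0.937), Neurod6 (0.931), Lmx1b (0.892), Slitrk6 (0.886) and Tmem44 (0.884). Without MMS 2 and MMS 4 these values were 0.955, 0.916, 0.914, 0.829 and 0.874. Lmx1a and Lmx1b are homeodomain factors of the developing midbrain and posterior hypothalamus, and Neurod6 is a neuronal bHLH factor, here also 1 of the 5 telencephalon markers listed. For all 5 genes the lowest libraries were the same as for Nr4a2, namely control 6, MMS 2 and MMS 3. The 5 genes were chosen by their r with Nr4a2 over these same libraries. Sharing its low libraries therefore follows largely from that choice and is not a further result.

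In those 3 libraries Nr4a2 was at 16.9 to 24.2 CPM, against 45.1 CPM or more in the other 9. Lmx1a reached at most 12.2 CPM there and at least 27.6 CPM in the other 9. For Neurod6 the values were at most 5.15 and at least 7.73 CPM, and for Lmx1b at most 2.73 and at least 5.47 CPM. The gaps of Slitrk6 (9.08 against 9.36 CPM) and Tmem44 (42.6 against 44.2 CPM) were small.

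Of the midbrain dopamine markers, Foxa2, a forkhead factor of the floor plate, had 0 counts in exactly control 6, MMS 2 and MMS 3 and 8 to 16 counts in each of the other 9 libraries. A count of 0 allowed up to 3 counts, or 0.632, 0.806 and 0.908 CPM in these libraries. Foxa2 and Barhl1 (at most 2.69 CPM against at least 3.53) were singled out after their values were seen. Th, which makes the dopamine precursor, did not share the pattern, with 1 of its 3 lowest libraries in common. The summed midbrain dopamine markers (4 listed) were 4.21, 3.22 and 1.51 CPM in control 6, MMS 2 and MMS 3. Control 6 was the lowest of the controls (4.21 to 30.2 CPM) and MMS 3 the lowest of the MMS libraries (1.51 to 11.5 CPM). The summed telencephalon markers were 51.4, 61.5 and 55.1 CPM in control 6, MMS 2 and MMS 3. Controls ran from 24.3 to 54.7 CPM and MMS libraries from 30.6 to 61.5 CPM, with MMS 2 the highest. The 3 libraries came from both groups, and the part of the dissection in these values was not tested.

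**Figure D4:**
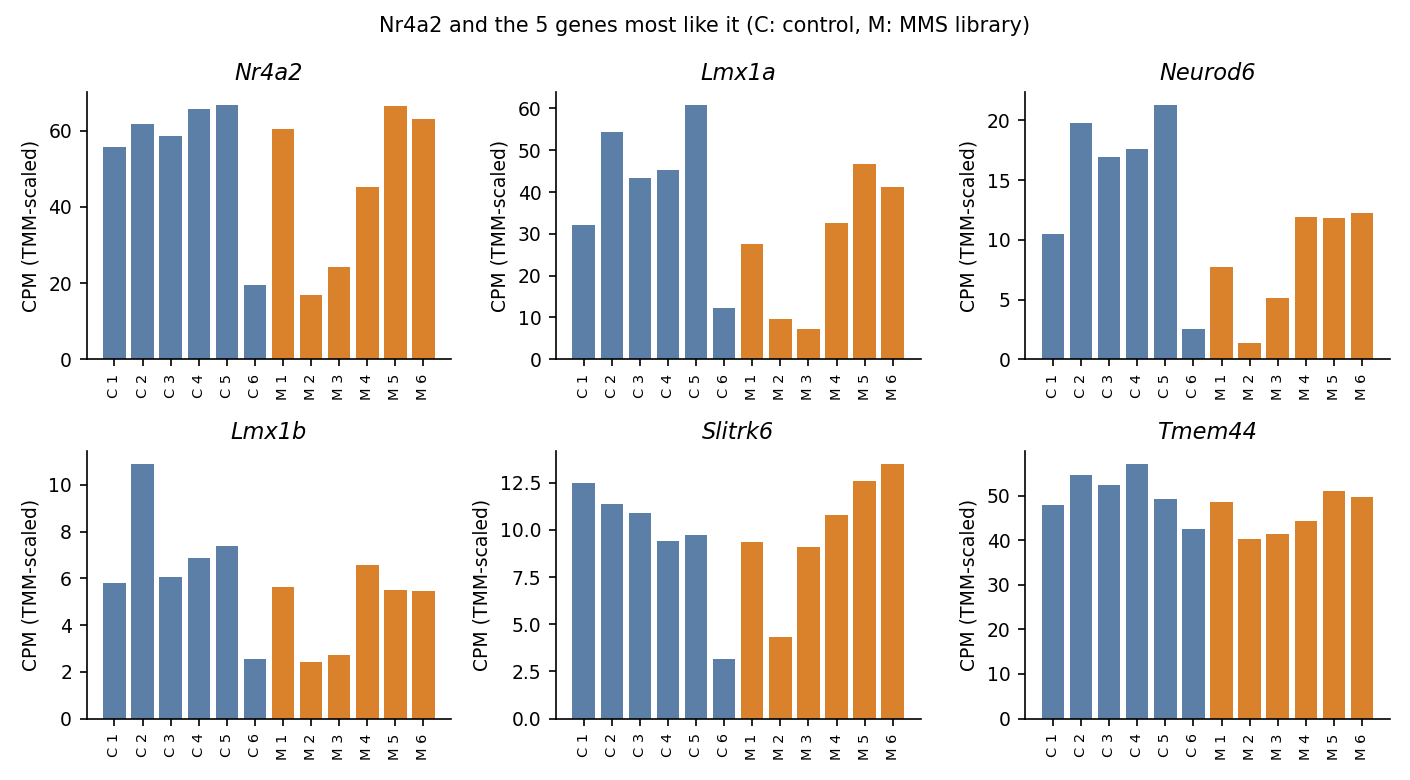
Bars give the level of Nr4a2 and of the 5 genes most like it in each of the 12 libraries (C, control, and M, MMS), in CPM on an axis from 0 that differs by gene. Control 6, MMS 2 and MMS 3 are the 3 lowest libraries for all 6 genes, with Nr4a2 at 24.2 CPM or less there and at 45.1 CPM or more elsewhere. The 5 genes were chosen by their likeness to Nr4a2 over these same libraries.

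The rest of the nuclear receptor superfamily was counted for comparison. Of 46 other nuclear receptor genes 30 were tested. By edgeR, adjusted over all genes, 0 passed, and at an unadjusted p under 0.05 there were 1 higher and 2 lower (10%). In this list and in the 4 described next, DESeq2 and limma-voom also called 0 genes. The receptors' median log2 fold change was -0.07, against 0.00 over all genes, and the range was -0.84 to 0.45. Without MMS 2 and MMS 4 it was -0.06 over 31 receptors. The smallest p-values belonged to Esrra, an orphan receptor of energy metabolism (0.45, SE 0.19), Nr1h2, the oxysterol receptor LXR beta (-0.40, SE 0.17), and Rxrb, a retinoid X receptor (-0.22, SE 0.11, adjusted p = 0.546 in edgeR, and -0.11 without MMS 2 and MMS 4).

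Among all 33 tested receptors Nr4a2 was the 6th most abundant in both groups. Nr4a1 and Nr4a3 were 21st and 27th in controls and 14th and 15th in the MMS group. Thra, the thyroid hormone receptor alpha, was the most abundant, at 1247 CPM in controls. The fitted fold change next below those of Nr4a3 and Nr4a1 was that of Esrra. Nr4a1 and Nr4a3 were selected on this contrast. Their place above the other receptors follows largely from that choice and is not a further result.

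**Figure D5:**
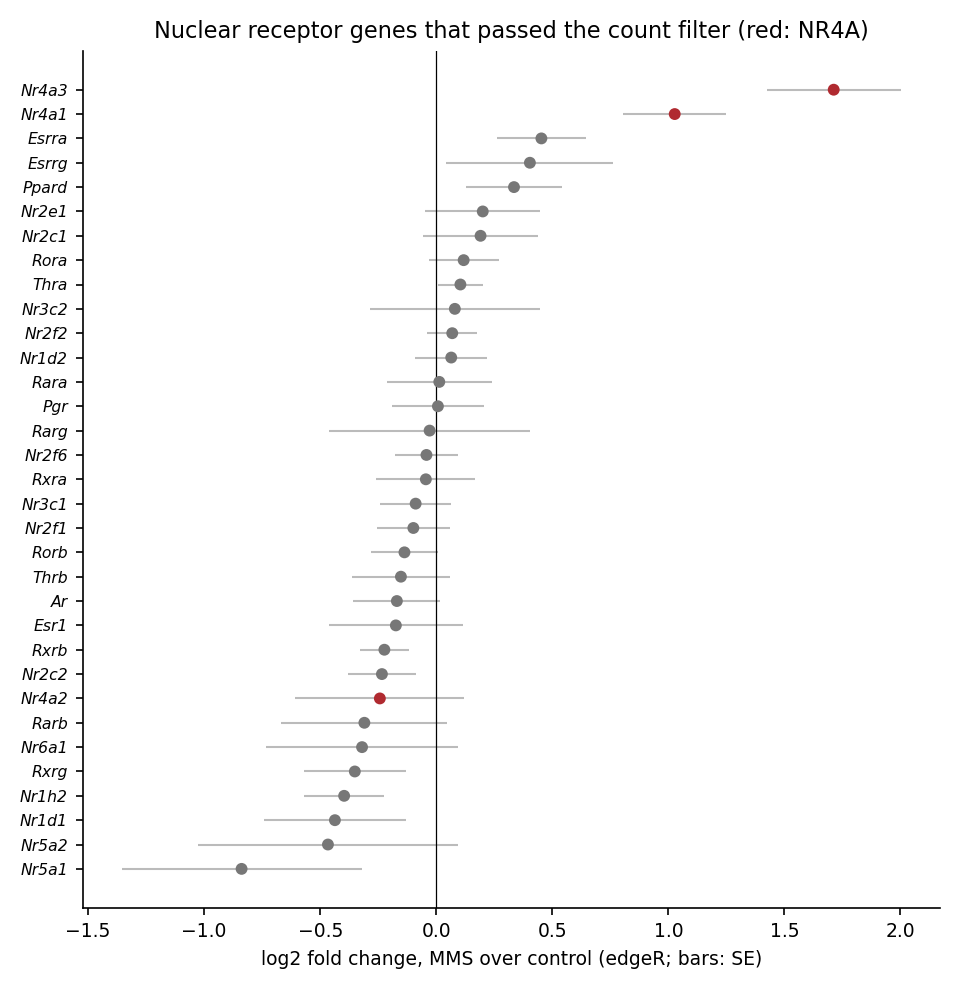
Fitted log2 fold change, MMS over control, on the horizontal axis for each of the 33 tested nuclear receptor genes in order of size, with bars for the standard error and the NR4A genes in red. Nr4a3 at 1.71 and Nr4a1 at 1.03 lie above the other receptors, which reach 0.45, and Nr4a2 at -0.24 lies among them. Nr4a1 and Nr4a3 were selected on this contrast, so their place at the top follows largely from that choice.

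Genes that act on NR4A transcription were examined next. Of 22 listed regulators all 22 were tested and 0 passed the adjusted test in edgeR, with 0 higher and 2 lower at an unadjusted p under 0.05 (9.09%, against 9.08% of all tested genes) and a median of -0.10. The sign of the median turned without MMS 2 and MMS 4, to 0.02, and 13 of the 22 fitted values were then positive, against 8 with all libraries. Hdac5, a histone deacetylase that represses MEF2 target genes, had a log2 fold change of -0.35 (SE 0.12), from 74 ± 5.94 CPM in controls to 58.2 ± 9.03 CPM. Mef2c, a calcium-regulated activator, was at -0.41 (SE 0.16) and Crtc1, a coactivator of CREB, at -0.32 (SE 0.17). Without MMS 2 and MMS 4 these were -0.21 for Hdac5, -0.38 for Mef2c and -0.07 for Crtc1, and without MMS 4 alone Crtc1 was at -0.18. With all libraries Creb1 itself was at -0.13 (SE 0.13) on the log2 scale.

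Early genes that are induced by the same signals gave a mixed picture. Of 30 listed genes 21 were tested and 0 passed, with 5 higher and 2 lower at an unadjusted p under 0.05 (33.3%, against 9.08% of all tested genes) and a median of 0.09. Of the 7 genes, those with higher fitted values were Fos, Fosl2, Egr1, Per1 and Egr4, and those with lower values were Ier5 and Jun. The share was not tested. The smallest adjusted p in edgeR was 0.385, for Fos. This depended on the tool. In DESeq2 the adjusted p was 0.0528 for Fos and 0.108 for Fosl2, and in limma-voom 0.358 and 0.464. Egr3 had 0 counts, and Npas4, a factor specific to neuronal activity, had 104 counts over all libraries and was not tested.

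Fos, the AP-1 subunit used as a mark of neuronal activity, was at 3.64 ± 1.34 CPM without MMS and 8.58 ± 3.4 CPM with it (log2 fold change 1.24, SE 0.30, adjusted p = 0.385 in edgeR). Fosl2, another AP-1 subunit, was at 11.4 ± 1.6 and 21.8 ± 9.13 CPM (0.93, SE 0.24, adjusted p = 0.434). Ier5, an early gene of growth and heat shock responses, was at 30.1 ± 4.79 and 22.2 ± 4.75 CPM (-0.44, SE 0.16, adjusted p = 0.543).

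Within the MMS group these early genes did not vary alike. Fosl2 was at 11.8 and 10.5 CPM in MMS 2 and MMS 4, inside the control range of 9.06 to 13.3 CPM, and at 22.2 to 34.1 CPM in the other 4. Nr4a3 was likewise lowest in MMS 2 and MMS 4. Fos had its highest values there, at 13.4 and 11.9 CPM, and Nr4a1 had 21.5 CPM in MMS 2 and its lowest MMS value, 15.1 CPM, in MMS 4. Per1, a clock gene with CREB and glucocorticoid sites, was at 15.8 and 21.8 CPM in MMS 2 and MMS 4. Both values lay below the control range of 22.5 to 29.4 CPM, and the other 4 MMS libraries had 37.2 to 56.4 CPM. Without MMS 2 and MMS 4 Fosl2 was 1.26 higher on the log2 scale (SE 0.18, adjusted p = 0.000387 in edgeR). Per1 was then 0.96 higher (SE 0.14, adjusted p = 0.000447 in edgeR), so that 2 early genes passed, among 5 of the 13407 genes tested. That fit left out the 2 MMS libraries in which neither gene was above its control range. Fos went the other way, from 1.24 to 0.85 (adjusted p = 0.961 in edgeR), and Ier5 was at -0.31 (adjusted p = 0.961 in edgeR). The median over the early genes then tested, 23, was 0.10. With all libraries Per1 was at 0.61 (SE 0.26, adjusted p = 0.543 in edgeR).

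Partners and coregulators of the receptors showed no call either. All 15 listed genes were tested, 0 passed in edgeR, and 1 was higher and 1 lower at an unadjusted p under 0.05 (13.3%), with a median of -0.04. Ncoa1, a steroid receptor coactivator, was at 0.24 (SE 0.13) on the log2 scale and at 0.09 without MMS 2 and MMS 4. The median of the list was -0.03 without them. The heterodimer partner of Nr4a1 and Nr4a2 is the retinoid X receptor, of which Rxra was at -0.04 (SE 0.21), Rxrb at -0.22 (SE 0.11) and Rxrg at -0.35 (SE 0.22).

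Of 18 genes reported as NR4A targets elsewhere in the body or brain 12 were tested. In edgeR 0 passed, 0 were past an unadjusted p under 0.05 in either direction, and adjusted p-values ran from 0.566 to 0.934. The fitted value was positive in 3 and negative in 9, with a median of -0.24. Without MMS 2 and MMS 4 the median was -0.02, over 13 genes of which 4 were positive. Slc6a3, the dopamine transporter, was at -1.18 (SE 0.62), Bdnf, a neuronal growth factor, at -0.28 (SE 0.16) and Ret, the receptor for GDNF family factors, at -0.23 (SE 0.15). The value of Slc6a3 was -0.62 without control 2, its highest library (23.1 CPM), and -1.11 without MMS 2 and MMS 4. Without those libraries Bdnf was at -0.17 and Ret at -0.12, and single libraries also moved them, Bdnf to -0.15 without control 5 and -0.185 without MMS 2, and Ret to -0.13 without MMS 3. Of the stress axis peptides, Crh was at 14.7 ± 9.06 and 17.6 ± 5.03 CPM (0.28, SE 0.40) and Pomc at 25.7 ± 12.5 and 19.1 ± 13.8 CPM (-0.46, SE 0.53) in controls and MMS pups, respectively. Slc6a3 was lowest in MMS 3 and MMS 2, where Nr4a2 was low, but next lowest in control 4 (1.6 CPM), where Nr4a2 was at 65.8 CPM. In control 6, low in Nr4a2, Slc6a3 was at 3.79 CPM, 6th from the lowest. The summed endothelium markers were 86.6 to 101 CPM in controls and 60.2 to 93.5 CPM in MMS, and the microglia markers 132 to 169 and 111 to 142 CPM. The summed pituitary markers were 0.229 to 23.6 and 0 to 41.2 CPM, with Pou1f1 at 0 counts, those of choroid plexus 10.3 to 1760 and 9.22 to 15.3 CPM, and those of red blood cells 390 to 721 and 235 to 733 CPM. Their part in the NR4A values was not tested.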

How the data were processed

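Each library was made from the total RNA of 1 hypothalamus with the QuantSeq 3' kit and sequenced on an Ion Proton. The authors aligned reads to mm10 and deposited the raw counts of each gene and library. How reads were counted (tool, strand, annotation) is not given in the sources used here. Pups were treated as independent, although littermates may lie in different groups. Library totals, 3218777 to 6560620 counts, set a precision that the Poisson intervals show, and that leaves out any other error.

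Libraries were grouped by title, 6 control and 6 MMS. The 30 within-group pairs differed by more than sampling noise (chi-square per degree of freedom 4.04 to 31.5). Counts were scaled by TMM and filtered (minimum count 10, minimum total 15), and 13104 of 43280 rows were tested in edgeR 4.0.16 (R 4.3.3) by its robust quasi-likelihood test, two-sided, with Benjamini-Hochberg adjustment and a threshold of 0.05. Log2 CPM used a prior count of 2. DESeq2 1.42.0 and limma 3.58.1 gave alternatives, as did the other scaling, no filter, a replicate block, each library left out, and MMS 2 and MMS 4 left out. Scripts were tested on simulated data. A planned test of the order of the members' levels in controls is not given, because control values entered the choice of the members.

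The members and gene lists were chosen with earlier results of these data known. Named were the 3 members, the 3 genes of smallest p per list, and the 5 genes most like each member (mean of at least 20 counts). Of these, 1 gene is not reported here. Per1, Foxa2 and other genes outside this rule were named after their values were seen. Promoters were taken from RefSeq, with 3 of 3 members matched.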

Additional observations from a re-analysis of the deposited data

Results flagged for a closer look

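Control 6 lay far below the other controls for Nr4a2, at 19.4 CPM against 55.8 CPM in the nearest control. The gap was 0.767 of the range of the group and past Dixon's 95% critical value for 6 samples. For the same reason its summed NR4A level stood apart, at 29.9 CPM against 66.9 CPM in the nearest control (gap 0.67 of the range). The sum is mostly Nr4a2, so these are not independent. Of 10 sets of 6 libraries examined 2 stood apart, and chance gives about 0.5. The summed sets repeat the members' values, and control values entered the choice of the members, so nothing is read from that count. Nr4a2 in MMS 2 and MMS 3 was as low as in control 6, which shows in the MMS group as a wide spread and not as a single library apart.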

How the results depend on the processing

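The signs of the 3 members' log2 fold changes were the same under all settings. For Nr4a2 they ran from -0.41 (SE 0.29) without control 6 to -0.02 (SE 0.38) without MMS 2 and MMS 4, so its sign is not settled. For Nr4a1 and Nr4a3, whose groups did not overlap, leaving libraries out could not have turned the sign. The count of genes past an adjusted p of 0.05 was 0 with all libraries, 7 with DESeq2, 5 without MMS 2 and MMS 4, 1 with no filter, and 0 to 1 with a library left out, with 1 without MMS 2 and 1 without MMS 4. Genes with an unadjusted p under 0.05 numbered 1190, and 674 without MMS 2 and MMS 4, 2039 with no filter, and 700 (without MMS 2) to 1804 (without MMS 5) with a library left out, including 707 without MMS 4. The early genes past an adjusted p were 2 without MMS 2 and MMS 4, where Fosl2 was at 1.26. Apart from DESeq2, which used all 12 libraries, these settings used fewer libraries or more genes. The cause was not tested. With a control left out, Nr4a2 exceeded Nr4a1 by 2.41 to 2.67, and Nr4a3 differed from Nr4a2 by -3.57 to -3.08 (log2).

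The labels number the replicates 1 to 6 in both groups. Same-numbered libraries deviated together with r of -0.0476 to 0.116, and 2 of 6 correlated best with their own number, so the numbers were not taken to pair pups. With the replicate block 1 gene passed, and the log2 fold changes were 1.08 for Nr4a1, -0.30 for Nr4a2 and 1.66 for Nr4a3. Nr4a1 and Nr4a3 are low, at 22 to 87 counts a library for Nr4a1 and 12 to 148 for Nr4a3, which limits the precision of single libraries.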
